A study of Mus musculus with 9 samples.

Results

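The genes described here are the receptors by which neutrophils sense immune complexes and activated complement, together with 2 soluble complement proteins: the Fc-gamma receptors Fcgr1, Fcgr2b, Fcgr3 and Fcgr4, their signalling chain Fcer1g, the anaphylatoxin receptors C3ar1 and C5ar1, complement C3 and properdin (Cfp). They were taken as the non-control probes that carry these gene names in the array design, which gave 10 probes for 9 genes, out of 55681 probes with 34797 names. C3 was covered by 2 probes and each other gene by a single probe. RNA came from Gr-1bright neutrophils sorted from female FVB/N mice painted on the back with the carcinogen DMBA (weeks 6 and 13 of life) and repeatedly with the promoter PMA (weeks 1 to 18-20). Every group shared this treatment, so untreated skin was not among the samples. The 4 groups were papilloma skin (skin next to papillomas, 2 arrays), tumor skin (skin next to carcinomas, 2 arrays), papilloma (3 arrays) and tumor (2 arrays). Each array held RNA pooled from several mice. The p-values and intervals measure the spread between such pools in values already corrected for the array slide. The fit of all arrays made no allowance for that correction, so any spread it removed is not in them. Lesions were dissociated with collagenase IV, dispase II and DNase I and skin with collagenase IV alone, so an effect of the enzymes and an effect of the lesion cannot be told apart. All preparations were incubated with an antibody against CD16/CD32, the products of Fcgr3 and Fcgr2b, to block Fc receptors before staining, and its effect on these transcripts was not tested.

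Fc-gamma receptors bind the constant part of IgG. Fcgr1, Fcgr3 and Fcgr4 are activating receptors that signal through the Fcer1g chain and its ITAM motif, whereas Fcgr2b is inhibitory and carries an ITIM motif. Cleavage of C3 opens the complement cascade, properdin stabilises the convertase of the alternative pathway and is stored in neutrophil granules, and the small fragments released on cleavage of C3 and C5 act through C3ar1 and C5ar1, the latter a classical chemoattractant receptor of neutrophils. The genes for Fcgr2b, Fcgr4, Fcgr3 and Fcer1g lay next to each other on chromosome 1, where their 4 probes spanned 269 kb between positions 172890988 and 173159853 of the mm9 build given in the array design. The probe for Fcgr1 lay on chromosome 3, that for C3ar1 on chromosome 6, that for C5ar1 on chromosome 7, the C3 probes on chromosome 17 and the Cfp probe on chromosome X.

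The values are log2 levels from the value table that the authors deposited, which had been normalized and corrected for the array slide before deposit. All 10 probes were well above background on each of the 9 arrays and no spot of theirs was saturated. Of the 9 arrays, papilloma skin 1, tumor skin 1 and tumor 1 differed from the others in the scanner data. They all lay on slide 1, the only slide that held both tumor and tumor skin. Their spike-in response had a slope of 0.678, 0.876 and 0.894 against 1.04 to 1.06 elsewhere, and at least 90.7% of their spots were well above background against 44.2% to 64.2%. In addition, the table columns papilloma skin 1 and tumor 1 ranked probes more like the scanner file of tumor 2 (Spearman rho 0.924 and 0.947) than like their own (0.588 and 0.827), and papilloma 2 and papilloma 3 were each closest to the other's file (0.981 and 0.959). The lesion differences of the members, and the calls of other genes, are therefore also described without papilloma skin 1 and tumor 1. Each column was given the slide of its own scanner file. For papilloma skin 1, tumor 1, papilloma 2 and papilloma 3 the closest file lay on another slide. Fits with the slide as a block and differences within a slide may therefore use a wrong slide for these columns, which was not tested. Ly6g, which marks neutrophils, was well above background on all 9 arrays, and so were 5 of 8 eosinophil markers (Ear1, Ear2, Ear6, Il5ra and Ccr3), among which Ear2 reached a mean log2 level of 12.97 in papilloma skin. The eosinophil granule genes Epx and Prg3 were well above background on none of the 6 arrays with a regular spike-in response, and Prg2 on 1.

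No Fc-gamma or complement receptor probe was called in any comparison, where a call needed, in the limma fit of all 9 arrays, an adjusted p up to 0.05, a difference of 1 log2 unit or more either way and an average level of 6 or more on the log2 scale. Over all probes tested, 4.21% were called for tumor versus tumor skin, 3.18% for papilloma versus papilloma skin, 0.447% for tumor versus papilloma, 0.26% for tumor skin versus papilloma skin and 0.0269% for the difference between the stages (tumor versus tumor skin minus papilloma versus papilloma skin). At an unadjusted p below 0.05, 10 of the 50 tests on the members passed, beside 19.9% of the tests on all probes, so the members' share was that of the array. By comparison these were 3 probes in tumor versus tumor skin (26.9% of all probes), 4 in papilloma versus papilloma skin (20.7%), 1 in tumor versus papilloma (14.4%), 1 in tumor skin versus papilloma skin (22.7%) and 1 in the difference between the stages (14.7%). In the 4 settings that read the scanner signals no probe of the array was called, members included. Fcer1g in papilloma passed the adjusted p alone, as did 6.35% of all probes in that comparison. In the value table the direction of the lesion difference was the same at both stages for 10 of 10 probes, 4 being higher in both lesions (Fcgr2b, Fcgr3, Fcgr4 and Fcer1g) and 6 lower in both (Fcgr1, C3ar1, C5ar1, Cfp and the pair of C3 probes). Of all 55681 probes 61.7% had the same direction at both stages, and of the 28871 probes above the level minimum 68.4%. The scanner signals did not keep this: there 3 to 6 of the 10 probes had the same direction at both stages (41.4% to 54.6% of all probes), and Fcgr4, C3ar1 and both C3 probes ran opposite ways in the 2 lesions in all 4 settings. These 2 comparisons shared no array but shared 1 normalization, and the smallest differences were -0.04 for a C3 probe in papilloma and -0.06 for C5ar1 in tumor.

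**Figure D1:**
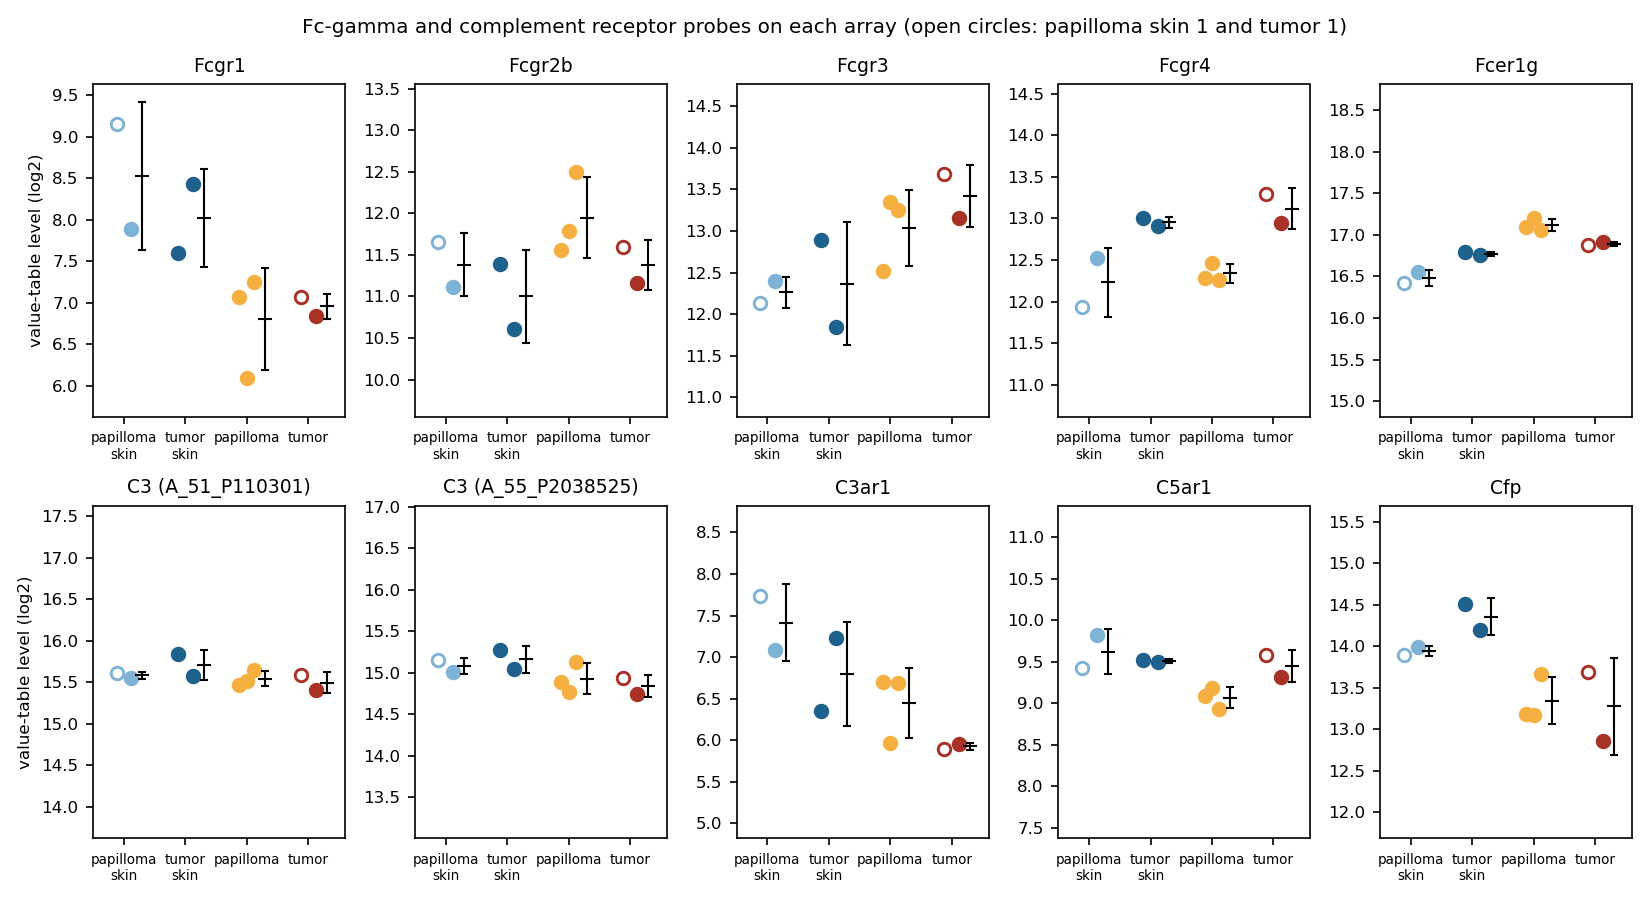
Log2 level of each probe in the deposited value table (y axis, 4 log2 units high in every panel) on each array of the 4 groups (x axis), with the group mean and SD beside the points and open circles for papilloma skin 1 and tumor 1. Fcgr1 and C3ar1 sit higher in both skin groups than in the lesion of the same stage, Fcer1g is highest in papilloma, and the C3 levels of all groups lie close together.

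Fcgr1 encodes the high-affinity IgG receptor, and it had the widest lesion difference among these genes. Its log2 level was 9.15 and 7.89 in papilloma skin, 7.60 and 8.43 in tumor skin, 7.07, 6.10 and 7.25 in papilloma, and 7.06 and 6.85 in tumor. Both skin groups thus lay wholly above the lesion groups in the value table, and the share of all probes split in this way was not computed. In the quantile-normalized scanner signals tumor skin 1, at 6.57, lay below papilloma 2, at 7.08. Papilloma versus papilloma skin gave a log2 fold change of -1.72 (95% interval -2.77 to -0.67, adjusted p = 0.0678), and tumor versus tumor skin gave -1.06 (-2.21 to 0.09, adjusted p = 0.218). The 2 lesion groups differed by 0.15 (-0.90 to 1.20) and the 2 skin groups by -0.51 (-1.65 to 0.64), less than their spread. The papilloma value depended on papilloma skin 1, the highest array. Without that array it was -1.09 (adjusted p = 0.300), whereas with the slide as a block it was -2.02 (adjusted p = 0.0316) and Fcgr1 was called. Papilloma minus papilloma skin was -2.08 within slide 1 and -1.79 within slide 2. Scanner signals gave -1.35 to -0.84 in the same comparison, with adjusted p no lower than 0.421. Tumor minus tumor skin within slide 1, the only slide with both, was -0.53 in the value table and 0.41 in the quantile-normalized scanner signals.

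Fcgr3 encodes the low-affinity activating receptor CD16. Its probe reads a coding stretch at chr1:172984129-172984188 (mm9, minus strand) within the extracellular part, where Fcgr2b is closely related, and cross-hybridisation between the pair was not tested. That probe is shown with that of Cfp because these 2 genes had the widest tumor differences in the direction of more and of less RNA; both are printed 5′ to 3′ as on the array and have no part in capitals.
Fcgr3 probe: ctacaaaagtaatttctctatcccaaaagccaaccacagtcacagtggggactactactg
Cfp probe: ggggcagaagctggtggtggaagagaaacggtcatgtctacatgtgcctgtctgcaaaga
The log2 level of Fcgr3 was 12.13 and 12.39 in papilloma skin, 12.89 and 11.84 in tumor skin, 12.51, 13.35 and 13.26 in papilloma, and 13.68 and 13.16 in tumor. Every lesion array was above every skin array of its own stage. Tumor versus tumor skin gave 1.06 (0.16 to 1.96, adjusted p = 0.129), and papilloma versus papilloma skin 0.78 (-0.04 to 1.60, adjusted p = 0.266). The tumor value ranged from 0.53 without tumor skin 2 to 1.58 without tumor skin 1 and was 0.79 without papilloma skin 1 and tumor 1, so that the distance between the tumor skin arrays set its size. With the slide as a block it was 0.90. The only shared slide, which held tumor 1 and tumor skin 1, gave 0.79. The same arrays gave 0.11 in the quantile-normalized scanner signals. Scanner signals gave differences of the same direction, 0.41 to 0.84 for tumor and 1.31 to 2.20 for papilloma.

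Fcgr4 encodes the activating receptor that mouse neutrophils share with monocytes. In the value table its levels lay apart by stage, though neither stage comparison was called. Its log2 level was 11.93 and 12.53 in papilloma skin and 12.29, 12.47 and 12.26 in papilloma, against 13.00 and 12.91 in tumor skin and 13.29 and 12.94 in tumor. All 4 arrays of tumor-bearing mice were above all 5 arrays of the papilloma stage. The share of all probes split in this way was not computed. Arrays did not overlap for 36.2% of all probes in tumor versus papilloma and for 48.9% between the skins. In the quantile-normalized scanner signals tumor 1, at 11.97, lay below the papilloma arrays (12.07 to 12.46). Tumor versus papilloma gave 0.78 (0.32 to 1.23, adjusted p = 0.156) and tumor skin versus papilloma skin 0.73 (0.23 to 1.23, adjusted p = 0.122). Lesion against skin gave 0.16 (-0.34 to 0.66) in tumor and 0.11 (-0.35 to 0.56) in papilloma, where the scanner signals gave -0.63 to -0.39, the other direction in 4 of 4 settings, and 0.51 to 1.46. Without papilloma skin 1 and tumor 1 the stage differences were 0.60 for the lesions and 0.43 for the skins. In the scanner signals the skin difference kept its direction (1.12 to 1.61), while the lesion difference lay between -0.47 and 0.14 and turned under the 75th percentile scaling.

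Fcer1g, the ITAM-bearing chain through which these activating receptors signal, was the only member to pass the adjusted p in any comparison in the fit of all 9 arrays. Its log2 level was 16.42 and 16.55 in papilloma skin, 16.79 and 16.76 in tumor skin, 17.09, 17.21 and 17.06 in papilloma, and 16.88 and 16.91 in tumor. In the value table the 4 groups did not overlap, and the share of all probes split in this way was not computed. In the quantile-normalized scanner signals tumor 1, at 16.56, lay below the tumor skin arrays (16.59 and 16.69) and tumor 2, at 16.93, above them. Papilloma versus papilloma skin gave 0.63 (0.35 to 0.92, adjusted p = 0.0213), under the fold minimum, so it was not called. The adjusted p lost the threshold when any array of the 2 groups was left out, 0.111 without papilloma skin 1 and 0.0677 to 0.0789 without each of the others, and it was 0.110 with the slide as a block. In the value table the difference stayed between 0.57 and 0.70 under these omissions, and was 0.67 within slide 1 and 0.65 within slide 2, whereas the scanner signals gave a larger one, 0.90 to 2.02. Tumor versus tumor skin gave 0.12 (-0.19 to 0.43), and the scanner signals -0.52 to 0.18, with the other direction in 2 of 4 settings. The difference between the stages was -0.51 (-0.93 to -0.10) with an adjusted p of 0.264 in limma, so it was not shown that the stages differed.

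Fcgr2b, the inhibitory receptor, had a log2 level of 11.65 and 11.11 in papilloma skin, 11.40 and 10.61 in tumor skin, 11.56, 11.78 and 12.49 in papilloma, and 11.60 and 11.16 in tumor. All groups overlapped with at least 1 other, and papilloma held the highest array. Papilloma versus papilloma skin gave 0.57 (-0.22 to 1.35), tumor versus tumor skin 0.38 (-0.48 to 1.23) and tumor versus papilloma -0.57 (-1.35 to 0.21). None passed an unadjusted p of 0.05. The scanner signals gave 1.63 to 2.15 for papilloma versus papilloma skin, with adjusted p of at least 0.331 over all settings. The activating Fcgr1 and the inhibitory Fcgr2b thus had differences of opposite sign in both lesions, but in tumor the side of Fcgr2b rested on tumor skin 2, without which it was -0.016, against 0.77 without tumor skin 1. Neither gene met the call rule in the fit of all arrays.

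**Figure D2:**
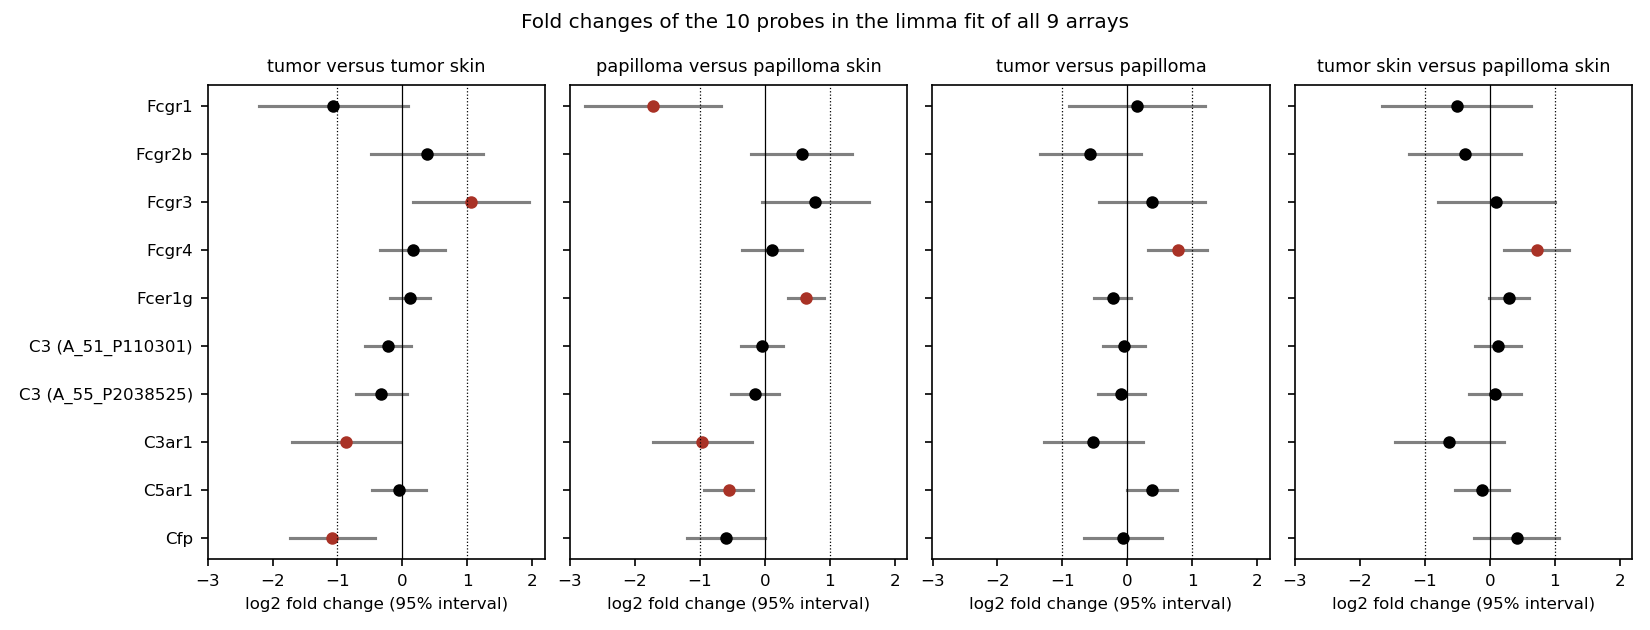
Log2 fold change (x axis) of the 10 probes (y axis) in the 4 comparisons, as points with 95% intervals from limma, red where the unadjusted p was below 0.05 and dotted lines at the fold minimum. The intervals of Fcgr1, Fcgr3, Fcgr2b and C3ar1 are the widest, in that order, and those of the C3 probes and of Fcer1g stay within 1 log2 unit of 0.

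C3 is the component on which all complement pathways meet. The level of the probe A_51_P110301, printed at 10 spots on each array, was 15.62 and 15.55 in papilloma skin, 15.84 and 15.58 in tumor skin, 15.46, 15.52 and 15.64 in papilloma, and 15.59 and 15.40 in tumor. These arrays spanned less than any other gene here. In the value table, tumor versus tumor skin gave -0.21 (-0.57 to 0.14) and papilloma versus papilloma skin -0.04 (-0.36 to 0.28). A difference of 1 log2 unit lay outside both of these intervals. The other C3 probe gave -0.32 (-0.72 to 0.08) and -0.15 (-0.52 to 0.21). The 2 C3 probes followed each other over the 9 arrays with r = 0.886. For papilloma, the scanner signals put both probes on the other side of 0, at 0.09 to 1.38.

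Cfp, properdin, came closest to the call rule, in tumor versus tumor skin. Its log2 level was 13.90 and 13.99 in papilloma skin, 14.51 and 14.20 in tumor skin, 13.19, 13.17 and 13.67 in papilloma, and 13.69 and 12.86 in tumor. Every lesion array was below every skin array, and the share of all probes split in this way was not computed. Tumor versus tumor skin gave -1.08 (-1.74 to -0.42, adjusted p = 0.0520), just outside the call rule, and papilloma versus papilloma skin -0.60 (-1.20 to 0.00, adjusted p = 0.245). The call turned on tumor 1. Without it the tumor difference was -1.49 and passed (adjusted p = 0.0330), whereas without tumor 2 it was -0.67 (adjusted p = 0.266). Without papilloma skin 1 and tumor 1 it was -1.49 (adjusted p = 0.0514), with the slide as a block -0.90, and within the only shared slide -0.83. The scanner signals gave -1.48 to -1.22 for the same comparison, and -0.68 to 0.48 for papilloma versus papilloma skin, where 1 of 4 settings turned the direction.

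C3ar1, the receptor for the C3 fragment C3a, had a log2 level of 7.74 and 7.09 in papilloma skin, 6.35 and 7.23 in tumor skin, 6.70, 5.97 and 6.69 in papilloma, and 5.90 and 5.96 in tumor. It had the lowest mean level among the members, 6.62. Its levels in tumor lay below the level minimum of 6 and below the medians of all probes on those arrays (6.10 and 6.12). In each stage the lesion arrays lay below the skin arrays. Papilloma versus papilloma skin gave -0.96 (-1.72 to -0.20, adjusted p = 0.143) and tumor versus tumor skin -0.87 (-1.70 to -0.04, adjusted p = 0.170). The tumor value ranged from -1.31 without tumor skin 1 to -0.43 without tumor skin 2. The papilloma value was -0.64 without papilloma skin 1, -1.18 with the slide as a block, and -1.05 and -1.12 within slides 1 and 2. It turned in the scanner signals, which gave 0.04 to 0.97 for papilloma, while those for tumor stayed below 0 (-0.64 to -0.09). The only slide shared by tumor and tumor skin went the other way there. Tumor 1 minus tumor skin 1 was -0.46 in the value table and 1.94 in the quantile-normalized scanner signals.

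C5ar1, the receptor for the C5 fragment C5a, had a log2 level of 9.43 and 9.82 in papilloma skin, 9.52 and 9.49 in tumor skin, 9.09, 9.18 and 8.93 in papilloma, and 9.58 and 9.31 in tumor. The papilloma arrays were below all others, and the other groups overlapped. The share of all probes with papilloma apart in this way was not computed. Papilloma versus papilloma skin gave -0.55 (-0.93 to -0.18, adjusted p = 0.0971). Tumor versus tumor skin gave -0.06 (-0.47 to 0.36), and the difference between the stages was 0.50 (-0.07 to 1.06, adjusted p = 0.395). The papilloma value was -0.75 without papilloma skin 1 and -0.36 without papilloma skin 2, and the scanner signals gave -0.13 to 0.17.

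Arrays of the groups compared did not overlap for 6 of 10 probes in tumor versus tumor skin (52.1% of all probes), 6 of 10 in papilloma versus papilloma skin (37.6%), 4 of 10 in tumor versus papilloma (36.2%) and 3 of 10 in tumor skin versus papilloma skin (48.9%). The members' share was above that of all probes in 3 of these comparisons and below it between the skins, and with 10 probes nothing was read from it. Without papilloma skin 1 and tumor 1, tumor versus tumor skin gave -1.17 for Fcgr1, -0.84 for C3ar1, -0.19 for C5ar1, -0.31 and -0.42 for the C3 probes, 0.16 for Fcgr2b and 0.14 for Fcer1g. In papilloma versus papilloma skin the same omission gave 0.57 for Fcer1g (adjusted p = 0.133), 0.64 for Fcgr3, 0.83 for Fcgr2b, -0.64 for Cfp, -0.64 for C3ar1 and -0.0082 and -0.085 for the C3 probes. Fcgr4 alone changed sides, to -0.014 in tumor and -0.19 in papilloma. Reading the scanner signals in place of the value table kept, in all 4 settings, the direction of Fcgr1, Fcgr2b and Fcgr3 in both lesions, of Cfp, C3ar1, C5ar1 and both C3 probes in tumor, and of Fcer1g and Fcgr4 in papilloma. These were fits over all arrays. Within slide 1 alone, the quantile-normalized tumor differences of Fcgr1 and C3ar1 had the other direction, as given above. Under the 75th percentile scaling the median of all probes itself shifted, by -0.40 for papilloma versus papilloma skin and by -0.16 for tumor versus tumor skin.

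**Figure D3:**
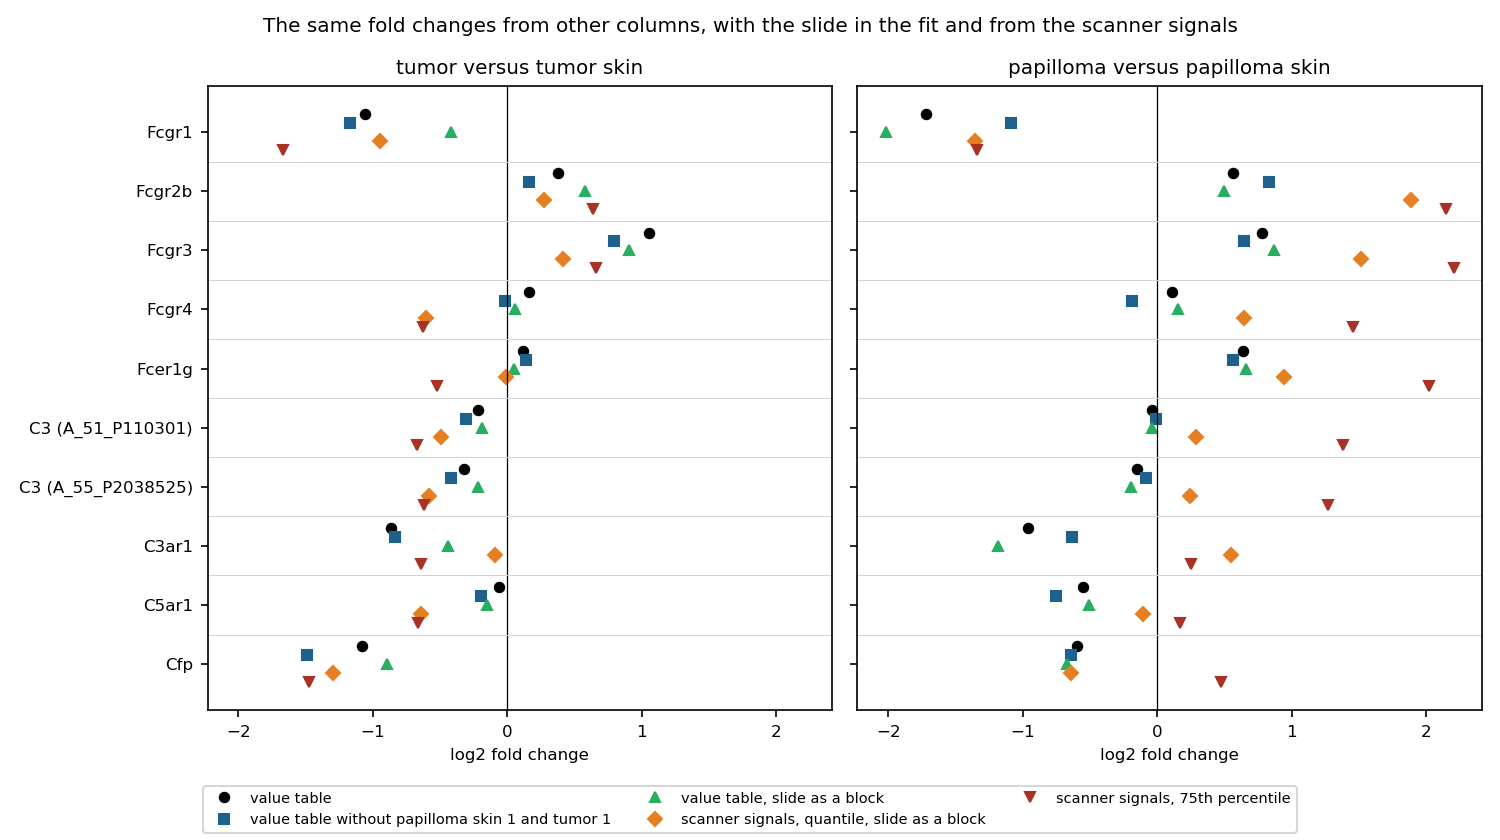
Log2 fold change (x axis) of each probe (y axis) in the 2 lesion-against-skin comparisons from the value table, without papilloma skin 1 and tumor 1, with the slide as a block, and from scanner signals scaled in 2 ways. Fcgr1 stays left of 0 and Fcgr3 right of 0 throughout, whereas C3 and C3ar1 in papilloma and Fcgr4 in tumor are among those that change sides with the source.

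Other genes of these pathways were taken as 4 lists, in which a gene counted as called when at least 1 of its probes was. Over all gene names on the array the same rule called 5.87% in tumor versus tumor skin, 4.39% in papilloma versus papilloma skin, 0.675% in tumor versus papilloma and 0.414% between the skins. None of the 13 relatives of the Fc receptors (such as Fcgrt, Fcer1a and Pigr) was called in either lesion comparison, and the list's median fold change (log2) was -0.12 in tumor and 0.09 in papilloma, beside -0.02 and -0.01 over all probes. Of 16 genes of Fc receptor signalling, 2 fell in tumor versus tumor skin, Plcg2 by 1.41 and Pik3cd by 1.34 on the log2 scale (adjusted p = 0.00728 and 0.0273), and the list's median was -0.37. Plcg2 encodes a phospholipase and Pik3cd a kinase subunit, both acting downstream of ITAM receptors. Pik3cd had 3 probes, of which only that one passed, the others being at -0.82 and -0.95. In papilloma versus papilloma skin Plcg2 fell by 1.16 (adjusted p = 0.0105) and Syk, the kinase that docks on the phosphorylated Fcer1g chain, rose by 1.08 (adjusted p = 0.0191) by 1 of its 2 probes, with 0.23 for the other, and the list's median was -0.07. Without papilloma skin 1 and tumor 1, Plcg2 kept both calls (adjusted p = 0.0303 and 0.0368), whereas Pik3cd (-1.59, adjusted p = 0.0730) and the Syk probe (0.78, adjusted p = 0.102) lost theirs. With the slide as a block none of these 4 calls passed, with adjusted p from 0.0714 for Plcg2 in papilloma to 0.158 for Pik3cd, and without tumor 2 both tumor calls were lost (adjusted p = 0.0646 and 0.171).

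Among 22 complement components, Cfd, factor D of the alternative pathway to which properdin also belongs, fell by 1.43 in tumor and by 1.47 in papilloma against the skin of the same stage (adjusted p = 0.0250 and 0.0180). C4b, of the classical pathway, fell by 1.06 in papilloma (adjusted p = 0.0350), but scanner signals put C4b at 0.67 to 0.96, on the other side of 0. The medians of this list were -0.20 and -0.05. Of 18 complement receptors and regulators, Clu (clusterin, an inhibitor of the terminal complex) rose by 1.13 in tumor versus tumor skin (adjusted p = 0.0375) and was 2.03 lower (-2.03) in tumor skin than in papilloma skin (adjusted p = 0.0374). In papilloma versus papilloma skin, Itgax, a chain of complement receptor CR4, rose by 1.87 (adjusted p = 0.00434) and Cd55, which dissociates convertases, fell by 1.55 (adjusted p = 0.00272). Cd59a, an inhibitor of the membrane attack complex, fell by 1.54 in tumor versus papilloma (adjusted p = 0.0195). The medians of the list were -0.18 in tumor and -0.14 in papilloma against skin. Without papilloma skin 1 and tumor 1, the calls of Itgax (1.45, adjusted p = 0.0327), Cd55 (adjusted p = 0.0441) and Cfd in both lesions (adjusted p = 0.0275 and 0.0308) remained. Those of C4b (adjusted p = 0.124), Cd59a (0.203) and Clu were lost, Clu standing at 1.47 in tumor versus tumor skin (adjusted p = 0.0548) and at -2.03 between the skins (0.273). With the slide as a block Itgax (1.93, adjusted p = 0.0305), Cd55 (0.0350) and C4b (0.0463) remained, and no pathway gene was called in tumor versus tumor skin, between the lesions or between the skins. Without tumor 2 alone, Cfd (adjusted p = 0.143) and Clu (0.206) in tumor versus tumor skin and Cd59a (0.156) also missed the threshold. All 12 calls of these lists were lost in the scanner fits, where no probe at all was called.

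**Figure D4:**
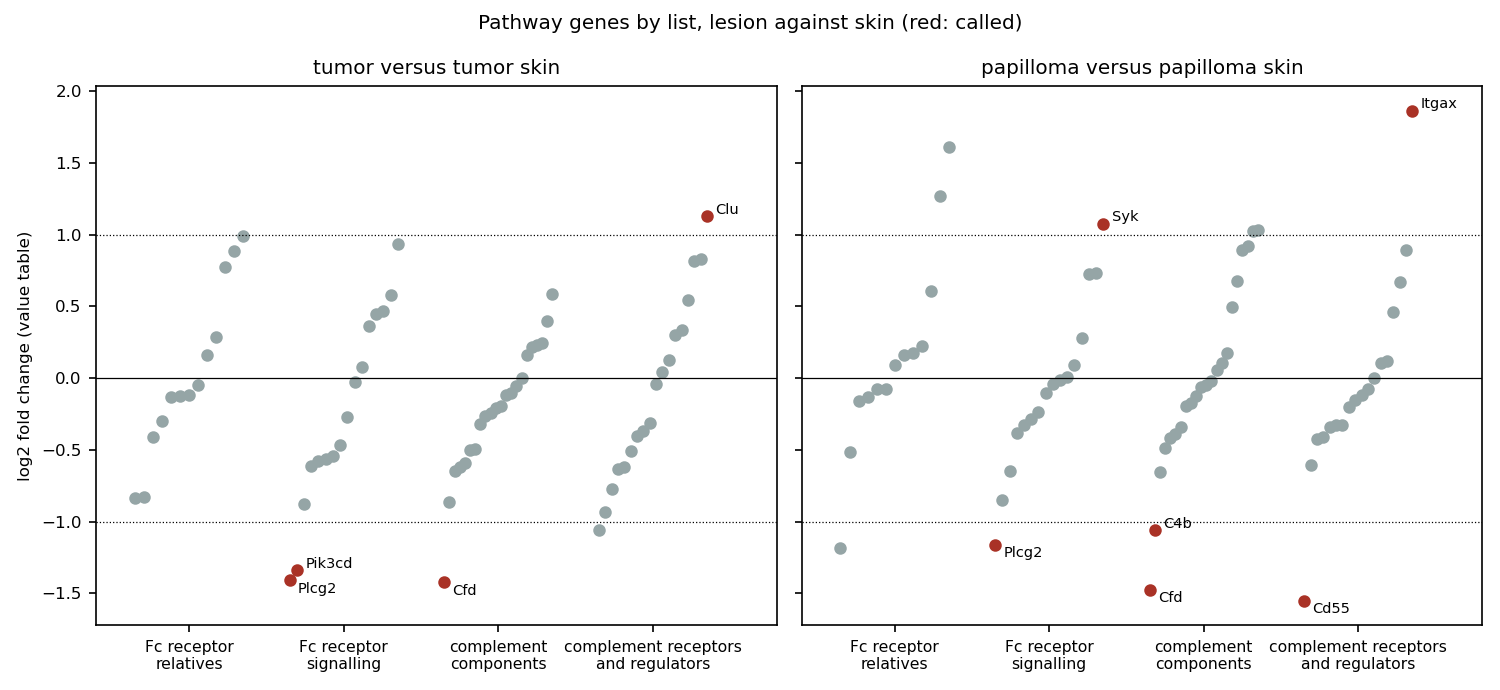
Log2 fold change (y axis) of every gene of the 4 pathway lists (x axis) in the 2 lesion-against-skin comparisons, 1 point a gene in order of size within its list, red and named where called, with dotted lines at the fold minimum. Cfd and Plcg2 are called in both panels and no gene of the Fc receptor relatives in either.

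The neutrophil preparations differed between lesion and skin in markers of other cell types, some higher and some lower in the lesions. Of 8 keratinocyte markers, Krt6a and Krt6b rose in both lesions and Krt14 in tumor, with list medians of 2.18 in tumor and 1.30 in papilloma. Krt6b, a keratin of activated epidermis, had a mean log2 level of 6.18 in tumor skin and 13.41 in tumor, and of 6.81 in papilloma skin and 11.69 in papilloma. Of 4 endothelial markers 3 rose in papilloma (Cdh5, Kdr and Pecam1) and Cdh5 in tumor. With the slide as a block none of these calls passed (adjusted p from 0.0509 for Pecam1 to 0.155 for Cdh5 in tumor). The Kdr call did not come from the Kdr probe of highest level. That probe had a mean of 12.57 in papilloma and 12.60 in papilloma skin, and of 12.21 in tumor and 13.51 in tumor skin. The log2 of the list's summed level was 12.34 and 12.40 in tumor, against 13.11 and 13.99 in tumor skin. Igj, the joining chain of plasma cells, fell by 7.13 in tumor and by 6.71 in papilloma on the log2 scale, and Cd79b of B cells fell by 3.06 in tumor. In tumor versus tumor skin, Cd74 and H2-Ab1 of 6 dendritic cell markers and Cd3d of 6 T cell markers also fell. Dcn, of 6 fibroblast markers, fell there too, but with the other direction in all 4 scanner settings. The median of the fibroblast list went the other way from Dcn, at 0.54 in tumor and 0.58 in papilloma. None of 6 mast cell markers was called in either lesion. Of 10 monocyte and macrophage markers, Emr1 and Lyz1 fell in both lesions, with list medians of -0.55 in tumor and -0.90 in papilloma. The log2 of the list's summed level was 16.41 to 16.85 in papilloma skin and 16.42 to 16.50 in tumor skin. In papilloma it was 15.37 to 15.63 and in tumor 15.53 to 15.67. Levels were summed unlogged, so the genes of highest level weigh most, here Lyz1 and Csf1r. Lyz1 had a mean log2 level of 15.48 in papilloma skin and 13.25 in papilloma, and Csf1r of 15.15 and 14.67. Emr1, the classical mouse macrophage antigen that eosinophils also carry, was well above background on all 9 arrays. Of 8 eosinophil markers 5 fell in both lesions (Ccr3, Ear1, Ear2, Ear6 and Il5ra), with summed levels of 12.81 to 13.90 in skin and 10.24 to 11.09 in the lesions. Ear2 weighs most in this sum, with a mean log2 level of 12.97 in papilloma skin and 9.10 in papilloma. Of 14 neutrophil markers, 6 fell in tumor and 4 in papilloma, among them Camp and Ngp. Ly6g was among those that fell in tumor, by 2.09 (adjusted p = 0.00894), from a mean log2 level of 12.44 in tumor skin to 10.35 in tumor. With the slide as a block the Ly6g difference was -2.16 (adjusted p = 0.0977). Without papilloma skin 1 and tumor 1, 18 of the 23 marker calls in tumor and 14 of 17 in papilloma remained (Igj in papilloma did not, at an adjusted p of 0.0593), and with the slide as a block 11 and 13. Fcgr1 and C3ar1 are also expressed by monocytes and macrophages, and their levels were lower in the same groups as the monocyte and macrophage and the eosinophil lists. The other Fc receptor members went the other way in the fit of all arrays. Fcgr4, which monocytes share, and Fcgr2b, Fcgr3 and Fcer1g were higher in both lesions. The part of the markers of any of these cell types in the members' differences was not tested. In sorted bulk samples, fewer cells of a type and less RNA per cell cannot be told apart.

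**Figure D5:**
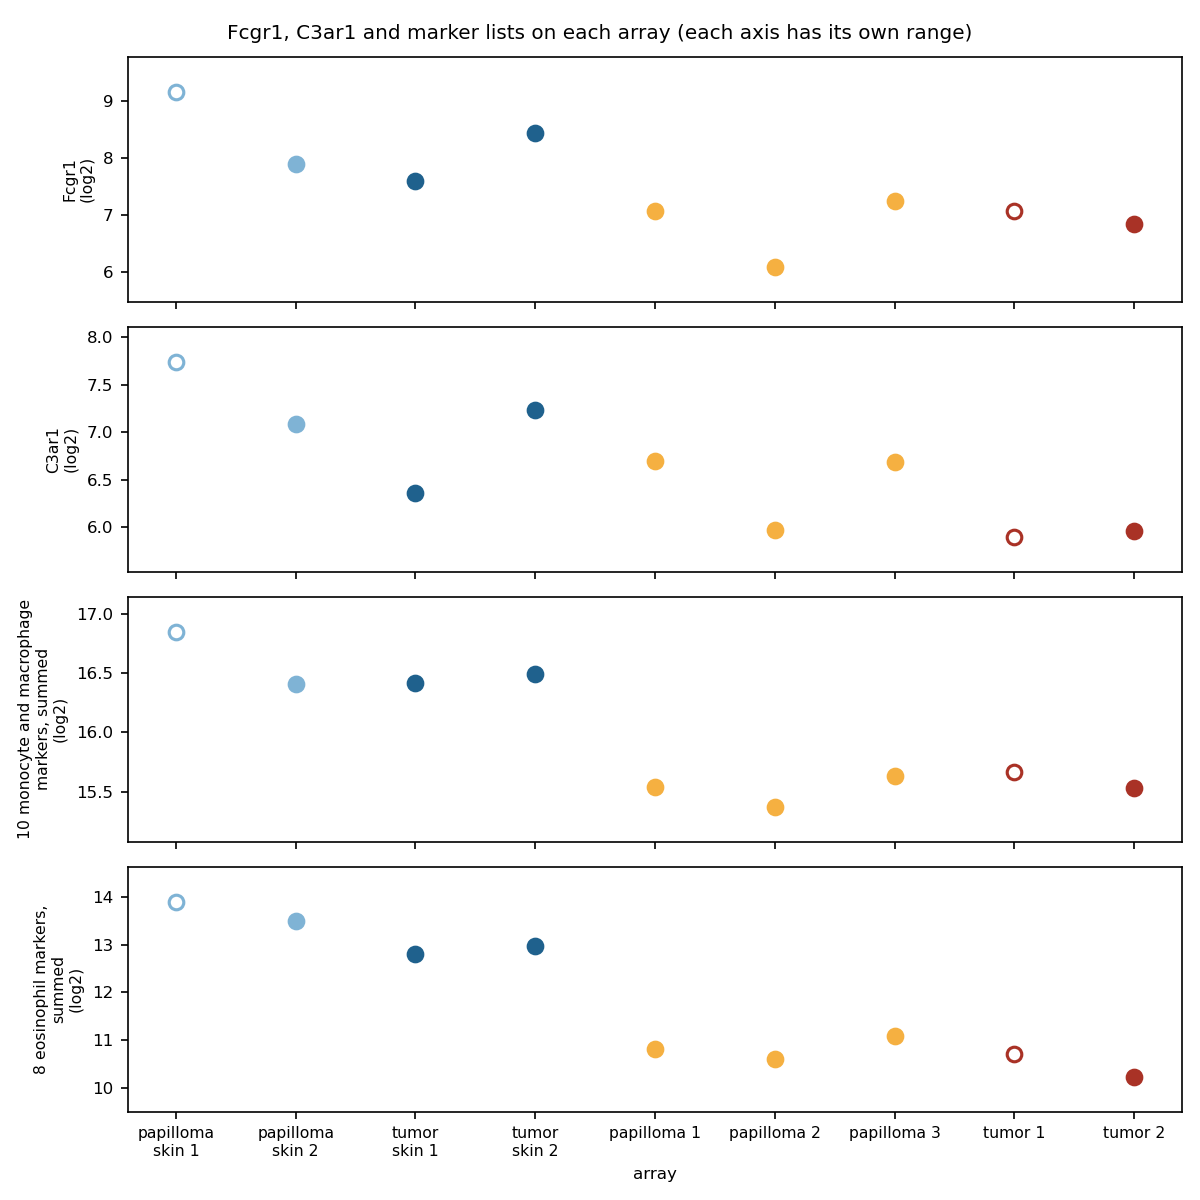
Log2 level of Fcgr1 and C3ar1 and log2 of the summed level of the 10 monocyte and macrophage and 8 eosinophil markers (y axes, each with its own range) on each of the 9 arrays (x axis), with open circles for papilloma skin 1 and tumor 1. Each sum weighs its genes of highest level most. Papilloma skin 1 is highest in all 4 panels, and both marker sums are higher on each of the 4 skin arrays than on each of the 5 lesion arrays.

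Over the 9 arrays, which share their groups and a normalization, C3ar1 followed Fcgr1 most closely among the members (r = 0.897), Fcgr3 ran against C3ar1 (r = -0.874) and Fcer1g against Fcgr1 (r = -0.879). Among 16934 named genes above the level minimum, those most like Fcgr1 were Ap1b1 (r = 0.989), Ccdc53 and Htra2 (both r = 0.977). For C3ar1 they were Cd48 (r = 0.985), Stxbp6 and Ptpro, for Fcgr3 Pdpk1 (r = 0.988), Clk3 and Gramd1a, for Fcgr4 Igfbp6 (r = 0.987), Cript and Cir1, and for Fcer1g Lasp1 (r = 0.979), Arnt and Cdh15. For Fcgr2b they were Adap2 (r = 0.949), Aqp4 and Zfp13, for C5ar1 Stag2 (r = 0.980), Arrdc3 and Tap2, for Cfp Bloc1s1 (r = 0.983), Lmo4 and Csk, and for C3 Slamf8 (r = 0.949), Fbxw10 and Kctd20. With this many candidates and 9 points, such values are a description only.

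Because Fcgr1 and C3ar1 ran together, the 250 bases before their start sites are shown from RefSeq (GRCm38.p6, both on the minus strand), with capitals for matches to the letters GAGGAA on either strand, the core bound by the myeloid factor PU.1, and to TTCNNNGAA, the GAS element bound by STAT factors.
Fcgr1, chr3:96293970-96294219: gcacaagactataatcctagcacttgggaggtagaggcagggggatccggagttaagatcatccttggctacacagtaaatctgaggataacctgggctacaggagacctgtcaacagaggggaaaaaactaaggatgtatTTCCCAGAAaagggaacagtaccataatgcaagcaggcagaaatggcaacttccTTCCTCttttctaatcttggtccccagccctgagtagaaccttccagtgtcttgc
C3ar1, chr6:122856158-122856407: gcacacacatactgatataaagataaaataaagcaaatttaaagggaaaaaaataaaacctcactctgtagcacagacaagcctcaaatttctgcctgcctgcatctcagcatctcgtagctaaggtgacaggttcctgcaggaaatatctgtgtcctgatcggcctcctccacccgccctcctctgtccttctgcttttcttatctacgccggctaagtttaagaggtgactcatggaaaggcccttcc
The Fcgr1 window held 1 match to each motif, which did not overlap, and the C3ar1 window none. GAGGAA was also matched in the windows of Fcgr3 and Fcgr4, and TTCNNNGAA in no other member's. Among all 32851 mouse promoter windows of this length, 23.3% held the first motif and 7.02% the second. A match is a description of the letters and not of a bound site.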

How the data were processed

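Gr-1bright neutrophils were profiled on 9 one-colour Agilent SurePrint G3 Mouse arrays. The scanner intensity values were deposited as Feature Extraction 10.7.3.1 output (mm9). The log2 values of the value table were deposited by the authors after quantile normalizing them with limma and correcting for the chip with ComBat. Groups came from the sample labels. The value table was fitted here with limma 3.58.1 in R 4.3.3 (4 groups, eBayes, Benjamini-Hochberg over 55681 non-control probes), and the call rule followed the study's methods. A list gene was called when at least 1 of its probes was called and none the other way. Members and lists were chosen with earlier results of these data known. Named were all members, at most 6 called genes per list and comparison, and the 3 genes most like each member. Alternatives were 14 other settings and 9 fits without 1 array. Scanner signals were scaled to the 75th percentile or quantile normalized, 1 of them after normexp (offset 50), and ComBat was not repeated. The script was tested on simulated data. Array number limits the precision. Motifs and sequences were read with Python scripts.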

Additional observations from a re-analysis of the deposited data

How the results depend on the processing

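With 2 or 3 pools per group, no member was called in the fit of all arrays. In tumor versus tumor skin 1 member, Cfp, was called when p was adjusted over probes above the level minimum only (adjusted p = 0.0415), when only probes well above background were kept (0.0458) and, among the fits without 1 array (0 to 1 members), without tumor replicate 1. In papilloma versus papilloma skin 1 member, Fcgr1, was called with the slide as a block and with the adjustment over probes above the level minimum (adjusted p = 0.0493). The number of pathway genes called was 4 in tumor versus tumor skin, 0 with the slide as a block, 1 with only the samples compared, and 0 to 4 without 1 array, 0 without tumor 2 and 2 without tumor skin 1 or papilloma 3. It was 6 in papilloma versus papilloma skin, 3 with the slide as a block, and 3 to 6 without 1 array, 3 without papilloma skin 2. The single calls between the 2 lesions and between the 2 skins became 0 with the slide as a block, without papilloma skin 1 and tumor 1 and, without 1 array, 0 to 1 and 0. The first also became 0 at a level minimum of 7, and the second with the adjustment over probes above the level minimum and with only the samples compared. In every scanner fit the pathway count was 0. With the replicate block the pathway counts were 0, 2, 0 and 0 in the 4 comparisons and no member was called. Deviations of same-numbered arrays from their group means had r between -0.957 and 0.376 in the value table. These r cannot show whether the numbers pair the samples, because slide effects had been removed and most groups held 2 arrays. The main fit used no pairing.

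Of 22 fold changes followed through all settings, 6 turned, all in scanner fits. C3ar1 in papilloma versus papilloma skin was 0.25 (75th percentile), 0.97 (quantile), 0.55 (quantile, slide as a block) and 0.042 (normexp), and C4b 0.69, 0.80, 0.96 and 0.67 in the same order. Cd55 was 0.13, 0.27 and 0.0032 in the 3 quantile fits. With the 75th percentile C5ar1 was 0.17 and Plcg2 0.036 in papilloma versus papilloma skin, and Fcgr4 -0.47 in tumor versus papilloma. The cause was not tested. Over all 50 member differences, 31 kept their direction in all 18 value-table settings by probe and 29 in all 4 scanner fits.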
